A study of Saccharomyces cerevisiae with 10 samples.

Results

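The genes described here encode the proteins of the yeast mitochondrial ribosome that carry its standard names. They were taken as every protein-coding gene whose symbol is MRPL, MRPS or RSM followed by a digit, a rule that uses names and no measured value. The rule gave 54 of the 6612 transcripts in the deposited tables. Of these, 34 are MRPL genes, which encode proteins of the large subunit, and 9 MRPS and 11 RSM genes make up 20 members of the small subunit. All 54 were present in each of the 10 tables, and all 54 passed the filter on low counts, with 1701 to 14549 estimated counts per library. Another 24 proteins of the same ribosome have other names (*MRP17*, for example) and serve below as a comparison list.

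RNA was measured in 5 cultures of BY *UBR1* -469A>T and 5 cultures of BY, both of Saccharomyces cerevisiae. BY is a laboratory strain, labelled BY4741 with the genotype *UBR1* wild-type, while the study's strain table gives it as MATa with deletions of *HIS3* and *HO*. BY *UBR1* -469A>T is BY with 1 base of the *UBR1* promoter exchanged by genome editing for the base of the vineyard strain RM. *UBR1* encodes the ubiquitin ligase that recognizes N-terminal degrons of the Arg/N-end pathway, and the comparison asks what this base does to the transcriptome. All cultures were grown in synthetic complete medium from an optical density of 0.05 for about 7 hours and harvested in parallel at about 0.40, and polyadenylated RNA was sequenced. The study's methods say that its allele swap strains were kept as independently derived replicates and that the RNA replicates were independent, without stating which derived isolates gave the 5 edited cultures. Depth was 71103539 to 97644549 estimated counts in the BY *UBR1* -469A>T libraries and 72105131 to 94432416 in the BY libraries. The label was checked on *UBR1* itself, which had 173 ± 8.72 CPM (read counts per sequenced total, TMM-scaled and called normalized CPM from here) in BY *UBR1* -469A>T and 149 ± 10.2 in BY (SD, n = 5 each), with a log2 fold change of 0.21.

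The mitochondrial ribosome translates the few messages of mitochondrial DNA, which encode core subunits of the respiratory chain and of ATP synthase and the ribosomal protein Var1. Nearly all of its other proteins are encoded in the nucleus, made on cytosolic ribosomes and imported. In yeast, messages for these proteins are classic targets of Puf3, a Pumilio-family protein that binds their 3′ ends and, in cells fermenting glucose, promotes their decay.

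A sequence shared by most of these messages was read from the reference genome. The Puf3 recognition element was searched as TGTANATA, on the coding strand only, in the 200 bases after each stop codon of the R64 assembly (RefSeq annotation). It was found at 53 of the 54 genes (98.15%), with *RSM22* the exception, against 844 of 6002 nuclear protein-coding genes (14.06%). The elements of the 6 members with the largest called decreases, of *MRPL17*, the only member whose fold change was positive (negative when libraries are scaled by size only), and of *RSM19*, the only member with 3 elements, are shown to let their surroundings be compared, with the element in capitals.
*RSM10*, chrIV:540465-540488, plus strand: ttcgtactTGTAAATAaaataggt
*MRPL16*, chrII:146903-146926, plus strand: tgtatacaTGTATATAactattga
*MRPL40*, chrXVI:224136-224159, plus strand: attcgaccTGTATATAtgaaagca
*MRPL32*, chrIII:119209-119232, plus strand: cttaagccTGTATATAgaaactta
*MRPL49*, chrX:246980-247003, plus strand: tagggataTGTACATAtacgcata
*MRPL49*, chrX:247008-247031, plus strand: taaaatcaTGTAAATAacaataaa
*MRPS17*, chrXIII:636220-636243, minus strand: ctacactcTGTAAATAtatacaac
*MRPL17*, chrXIV:171337-171360, minus strand: caatcacaTGTAAATAtcattaaa
*RSM19*, chrXIV:695027-695050, minus strand: ggatctagTGTATATAgatttcta
*RSM19*, chrXIV:694999-695022, minus strand: atatatcaTGTAAATAagatcaag
*RSM19*, chrXIV:694971-694994, minus strand: actcgggcTGTATATAtatatata

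The 53 genes held 66 elements, with 2 elements each at 11 genes. Their first base lay between 8 and 165 bases after the stop codon, with a median of 56.5, and 59 of the 66 lay within 100 bases. The base at N was A in 29 elements, T in 20, C in 16 and G in 1. A cytosine stood 2 bases before the element in 43 of 66 cases (65.2%), as in the sequences of *RSM10*, *MRPL40* and *MRPL32*, against 213 of 857 elements (24.9%) at all other nuclear genes. The other proteins of the mitochondrial ribosome carried the element at 24 of 24 genes. The nuclear subunits of the respiratory chain and ATP synthase carried it at 4 of 36 genes (11.1%) and the cytosolic ribosomal proteins at 6 of 138 (4.35%). A match is a run of letters in the reference and was not tested for binding in these cultures.

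**Figure D1:**
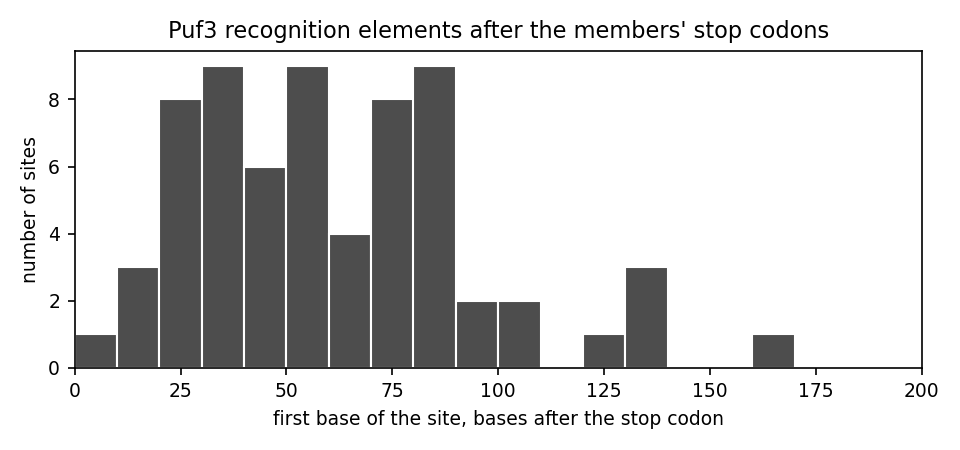
Position of the 66 Puf3 recognition elements (TGTANATA) of the mitochondrial ribosomal protein genes, as the distance in bases from the stop codon to the element's first base (x axis), with the number of elements in each bin of the histogram (y axis). The median lies at 56.5 bases, and 59 of the 66 elements lie within 100 bases.

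In BY *UBR1* -469A>T, transcripts for 15 mitochondrial ribosomal proteins of both subunits fell by small amounts relative to BY, and none rose. The test was the quasi-likelihood test of edgeR, with 2 surrogate variables as covariates, which are estimated from the counts themselves, over the 5986 transcripts that reached 10 estimated counts in all 10 libraries. A gene is called at an adjusted p under 0.1 (Benjamini-Hochberg over all transcripts tested), and fold changes are those of BY *UBR1* -469A>T over BY. Called lower were 15 of the 54 members (27.8%), where 9.34% of all transcripts tested were called lower, and called higher were 0 of 54, where the share over all transcripts was 11.9%. At an unadjusted p under 0.05 there were 21 of the 54 members, all of them lower, beside 1760 of 5986 transcripts in either direction. DESeq2 also called 15 members lower and 0 higher, where it called 634 of the 5986 transcripts lower and 795 higher. The fold change was negative for 53 of the 54 (41 to 54 over the alternative fits), and its median was -0.07 on the log2 scale, beside 0.0011 over all transcripts tested. The called members changed by -6.77% to -14.4%, and the standard errors of all 54 ran from 0.031 to 0.053 on the log2 scale. The large subunit had 8 of 34 members called lower and a median of -0.07, and the small subunit had 7 of 20 called lower and a median of -0.07. The difference between the subunits was not tested. In RNA from whole cultures, fewer cells that express a gene and less RNA per cell cannot be told apart.

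These calls rest on the covariates and on certain libraries. With 0 surrogate variables edgeR called no member (20 had an unadjusted p under 0.05, and the median was -0.13), and with 1 surrogate variable none passed either (8 under 0.05, median -0.05). Without BY replicate 5, 1 member was called, *MRPL40*, among 237 transcripts in all. Leaving out a BY *UBR1* -469A>T library gave 2 member calls without replicate 2, 4 without replicate 3 and 6 without replicate 4, and leaving out BY replicate 1 gave 9. In the same order, 2.44%, 5.16%, 5.82% and 8.98% of all transcripts were called lower in these fits. The scaling mattered for the count too: TMM, the scaling used, gave factors of 0.953 to 0.995 in the 5 BY *UBR1* -469A>T libraries and of 1.00 to 1.03 in the 5 BY libraries, and with library size alone 46 members were called lower, within 1771 lower and 394 higher calls over all transcripts in place of 559 and 712. In every one of these settings no member was called higher, and the members' median stayed below 0.

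**Figure D2:**
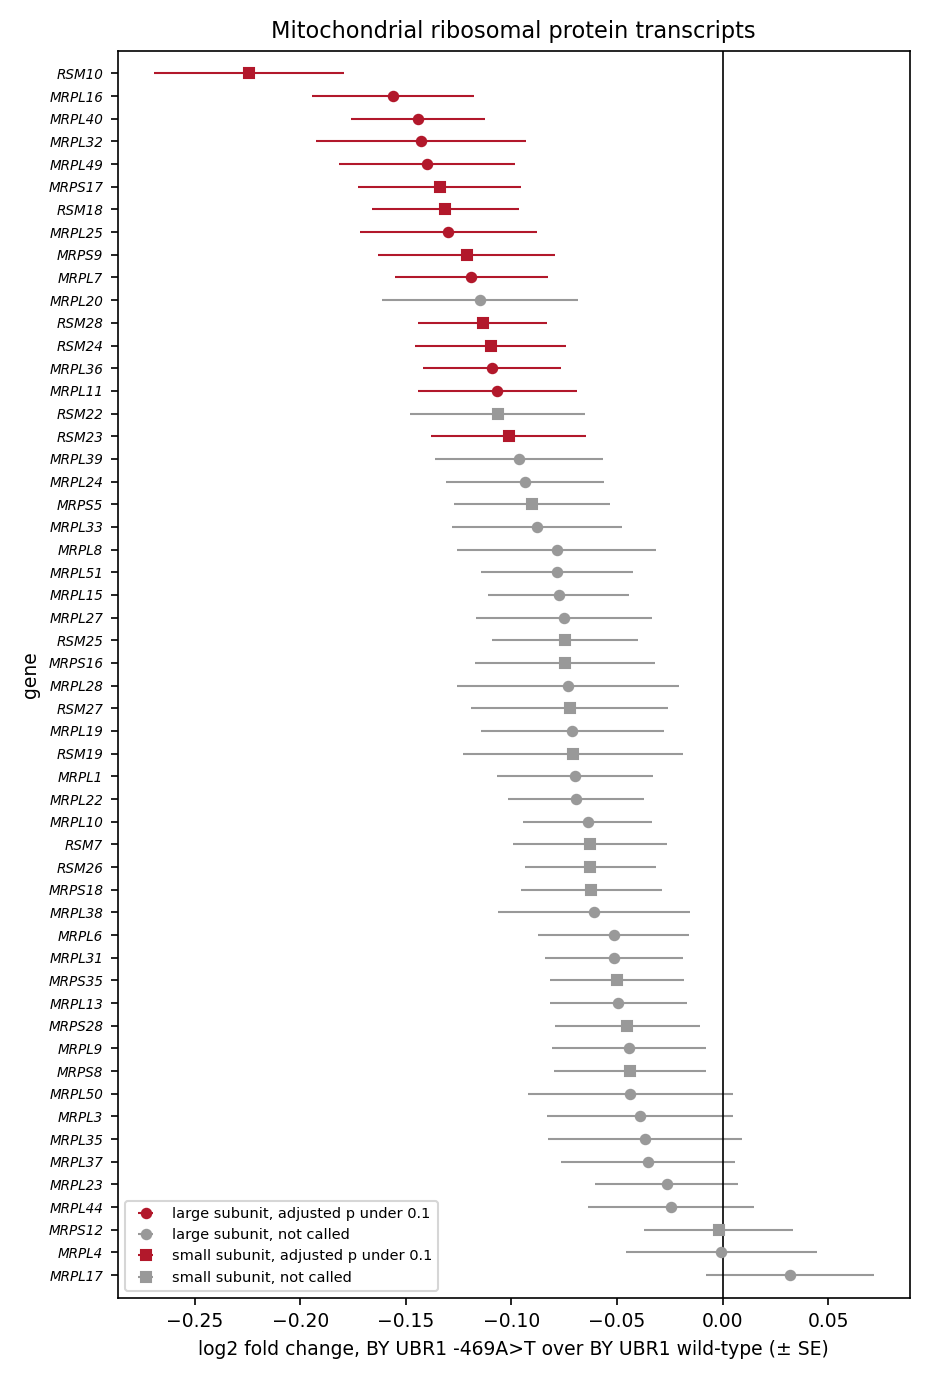
Log2 fold change of BY *UBR1* -469A>T over BY (x axis) for the 54 mitochondrial ribosomal protein genes (y axis, sorted), with bars of 1 standard error from edgeR's fit with 2 surrogate variables. Circles are large subunit and squares small subunit genes, and red marks the 15 genes called at an adjusted p under 0.1, from -0.22 (*RSM10*) to -0.10 (*RSM23*). *MRPL17* alone lies above 0, at 0.03, and is at -0.03 when libraries are scaled by size only.

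*RSM10* (YDR041W, uS10m), the counterpart of bacterial ribosomal protein S10 in the small subunit, had the largest fall. Its gene lies on the plus strand of chromosome IV from 539803 to 540414. It had 74.8, 63.4, 57.2, 59.2 and 57.8 normalized CPM in the 5 BY *UBR1* -469A>T libraries, against 82.2, 81.6, 81.1, 73.8 and 70.2 in the 5 BY libraries. Replicate 1 of BY *UBR1* -469A>T lay above BY replicates 4 and 5, and its other 4 libraries lay below every BY library. Its log2 fold change of -0.22 (SE 0.045, adjusted p = 0.011 by the quasi-likelihood test of edgeR) is a change of -14.4%. An exact two-sided permutation test without covariates gave p = 0.024, where 5 against 5 cannot go below 0.0079. The call was kept in 18 of 22 alternative fits, whose adjusted p lay between 0.00023 and 0.58. The call ended without BY replicate 5 (log2 fold change -0.18, adjusted p = 0.14).

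*MRPL16* (YBL038W, uL16m), the counterpart of bacterial L16, lies on the plus strand of chromosome II from 146187 to 146885. It had 56.2, 49.0, 45.0, 46.8 and 42.2 normalized CPM in BY *UBR1* -469A>T, against 65.1, 59.9, 57.8, 53.6 and 50.3 in BY. Again 4 of the 5 edited cultures were below all 5 BY cultures and replicate 1 was not. On the log2 scale the difference was -0.16 (SE 0.038, adjusted p = 0.025, edgeR), and 17 of 22 alternative fits kept the call, with adjusted p from 0.0020 to 0.41. It was lost without BY replicate 5 (adjusted p = 0.29) and without BY *UBR1* -469A>T replicate 2 (adjusted p = 0.16, by edgeR in both cases).

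*MRPL40* (YPL173W, uL24m), the counterpart of bacterial L24, lies on the plus strand of chromosome XVI from 223143 to 224036. It was the steadiest call of the 6. It had 51.1, 50.1, 46.4, 46.7 and 45.2 normalized CPM in BY *UBR1* -469A>T, against 56.2, 57.2, 58.3, 54.2 and 50.2 in BY. The strains overlapped by the margin between replicate 1 of BY *UBR1* -469A>T and replicate 5 of BY. Its log2 fold change was -0.14 (SE 0.032, adjusted p = 0.016, edgeR), and the call held with each of the 10 libraries left out in turn and in 19 of 22 alternatives, with adjusted p from 0.00105 to 0.67.

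*MRPL32*, *MRPL49* and *MRPS17* fell by similar amounts, with calls that moved more from setting to setting. *MRPL32* (YCR003W, bL32m; chromosome III, 118620 to 119171, plus strand) encodes a large subunit protein whose precursor is cut by the m-AAA protease of the inner membrane. It had 44.0, 38.2, 37.2, 38.8 and 36.2 normalized CPM in BY *UBR1* -469A>T, against 49.8, 43.7, 42.8, 42.5 and 43.2 in BY, so that replicate 1 of each strain stood above the other 4. Its log2 fold change was -0.14 (SE 0.050, adjusted p = 0.082, edgeR), kept in 13 of 22 alternatives (adjusted p from 0.0044 to 0.60). The adjusted p passed 0.1 without BY replicate 1 (0.12), BY replicate 4 (0.11), BY replicate 5 (0.60) and BY *UBR1* -469A>T replicates 2, 3 and 4 (0.30, 0.20 and 0.13).

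*MRPL49* (YJL096W, bL21m; chromosome X, 246490 to 246975, plus strand), the counterpart of bacterial L21, had 43.2, 37.8, 38.4, 38.6 and 37.3 normalized CPM in BY *UBR1* -469A>T, against 48.8, 49.6, 43.6, 41.3 and 41.6 in BY. Replicate 1 of BY *UBR1* -469A>T lay within the BY range and the other 4 below it. The log2 fold change was -0.14 (SE 0.042, adjusted p = 0.051, edgeR), kept in 14 of 22 alternatives (adjusted p from 0.011 to 0.81). The call ended without BY replicate 1 (0.15), BY replicate 5 (0.41) and BY *UBR1* -469A>T replicates 2, 3 and 4 (0.28, 0.14 and 0.11).

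*MRPS17* (YMR188C, uS17m; chromosome XIII, 636291 to 637004, minus strand), the counterpart of bacterial S17, varied most between cultures of 1 strain. It had 72.4, 61.3, 53.8, 53.8 and 48.1 normalized CPM in BY *UBR1* -469A>T, against 74.4, 75.4, 70.9, 66.4 and 60.6 in BY, with a coefficient of variation of 16.1% among the edited cultures and 8.80% in BY. Replicates 1 and 2 of BY *UBR1* -469A>T reached into the BY range. Its fitted difference was -0.13 on the log2 scale (SE 0.038, adjusted p = 0.043, edgeR), and the exact permutation test without covariates gave p = 0.056. The call was kept in 15 of 22 alternatives (adjusted p from 0.0014 to 0.46) and lost without BY replicate 5 (0.43) and without BY *UBR1* -469A>T replicates 2, 3 and 4 (0.25, 0.14 and 0.12).

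The other 9 called members were *RSM18*, *MRPL25*, *MRPS9*, *MRPL7*, *RSM28*, *RSM24*, *MRPL36*, *MRPL11* and *RSM23*, with log2 fold changes from -0.13 to -0.10. *RSM18*, *MRPS9*, *MRPL7*, *MRPL36* and *MRPL11* are counterparts of bacterial S18, S9, L5, L31 and L10. The last of them, *RSM23*, is the homolog of human DAP3, and it had 57.8, 60.3, 60.4, 59.3 and 61.9 normalized CPM in BY *UBR1* -469A>T, against 58.8, 58.4, 66.8, 62.9 and 67.1 in BY. Those ranges overlap widely, an exact permutation test gave p = 0.21, and the fold change of -0.10 (adjusted p = 0.092, edgeR) was called in 9 of 22 alternatives, with adjusted p from 0.0094 to 0.63. It lost its call without BY replicates 3 and 5 (0.13 and 0.28) and without BY *UBR1* -469A>T replicates 1 to 5 (0.19, 0.18, 0.12, 0.14 and 0.10). Of all 54 members, 18 had an exact permutation p under 0.05, and 13 of these were among the 15 called. The share of all transcripts with such a permutation p was not counted. In edgeR's fit with 0 surrogate variables, 20 members and 1400 of the 5986 transcripts had an unadjusted p under 0.05. The 15 were called in the same libraries, so their permutation p values, from 0.016 to 0.21, are no separate support.

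Complete separation of the strains was rare. *MRPL24* (YMR193W, bL28m), the counterpart of bacterial L28, was the 1 member of 54 whose BY *UBR1* -469A>T libraries all lay below all BY libraries, where 1.39% of all transcripts tested separated in that direction. It is named because of that value. It had 41.3, 39.4, 40.4, 38.3 and 35.8 normalized CPM in BY *UBR1* -469A>T, against 41.9, 41.7, 42.4, 42.6 and 43.1 in BY (p = 0.0079 in an exact two-sided permutation test, the lowest value that 5 against 5 can give). The fitted log2 fold change was -0.09 and was not called (adjusted p = 0.12, edgeR). Replicate 1 of BY *UBR1* -469A>T was the highest of its strain for 42 of the 54 members. How often it was highest over all transcripts was not counted. Without this library 17 members separated, where 4.96% of all transcripts did. Leaving out a library that stands high for most members favours their separation, so these values are a description. With each library left out in turn, 1 to 17 members separated.

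The 6 most abundant messages of the group were not among those called. TPM, which divides by transcript length and so lets genes be compared, ran over a 44.4-fold range across the 54 members, with a median of 50.1 and with 43 members between 25 and 100 TPM. *MRPL39* (YML009C, bL33m; chromosome XIII, 251304 to 251516), the counterpart of bacterial L33 and the shortest member at 213 bases, had 475, 422, 409, 372 and 393 TPM in BY *UBR1* -469A>T, against 569.5, 528, 498, 447 and 450.3 in BY. Its strains overlapped through replicate 1 of BY *UBR1* -469A>T, and the log2 fold change of -0.10 was not called (adjusted p = 0.13, edgeR). *MRPL33*, the counterpart of bacterial L30, averaged 221 ± 14.2 TPM in BY *UBR1* -469A>T and 261 ± 20.7 in BY (SD, n = 5 each). *MRPS12*, the counterpart of the decoding-site protein S12, averaged 202 ± 28.4 TPM in BY *UBR1* -469A>T and 235 ± 25.2 in BY (SD, n = 5 each). The highest BY *UBR1* -469A>T library, replicate 1, touched the lowest BY library for *MRPL33* (241 TPM in both) and lay within the BY range for *MRPS12*. *RSM19*, the counterpart of bacterial S19, averaged 137 ± 12.1 TPM in BY *UBR1* -469A>T and 150.4 ± 5.65 in BY (SD, n = 5 each). *MRPL44* (mL53) averaged 128 ± 4.58 TPM in BY *UBR1* -469A>T and 136 ± 6.47 in BY, and *MRPL37* (mL54) averaged 123 ± 9.94 in BY *UBR1* -469A>T and 141 ± 12.7 in BY (SD, n = 5 each). *MRPL44* and *MRPL37* differed by less than the SD of *MRPL37* in each strain, and their order was not the same in both. *MRPL44* is spliced, with 297 coding bases in a gene that spans 444.

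The fitted fold change takes in the surrogate variables, and for *MRPS12* it lay apart from the difference without them. *MRPS12* had 153, 145, 123, 116 and 110.1 normalized CPM in BY *UBR1* -469A>T, against 149, 153, 151, 137 and 119 in BY. Its fitted log2 fold change was -0.0018 (adjusted p = 0.98, edgeR), while the difference of mean log2 CPM without covariates was -0.14. The fitted value was -0.135 with 0 surrogate variables, 0.05 with 1 surrogate variable and 0.0014 with no minimum count. *MRPL44* and *MRPL37* had fitted log2 fold changes of -0.02 and -0.04, *RSM19* of -0.07 and *MRPL33* of -0.09, none of them called. *MRPL37* turned to 0.0014 with 1 surrogate variable. Mean TPM, which has no TMM scaling, was lower in BY *UBR1* -469A>T for all 54 members, *MRPL17* included. In normalized CPM without covariates the mean was lower for 52 members and higher for 2.

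**Figure D3:**
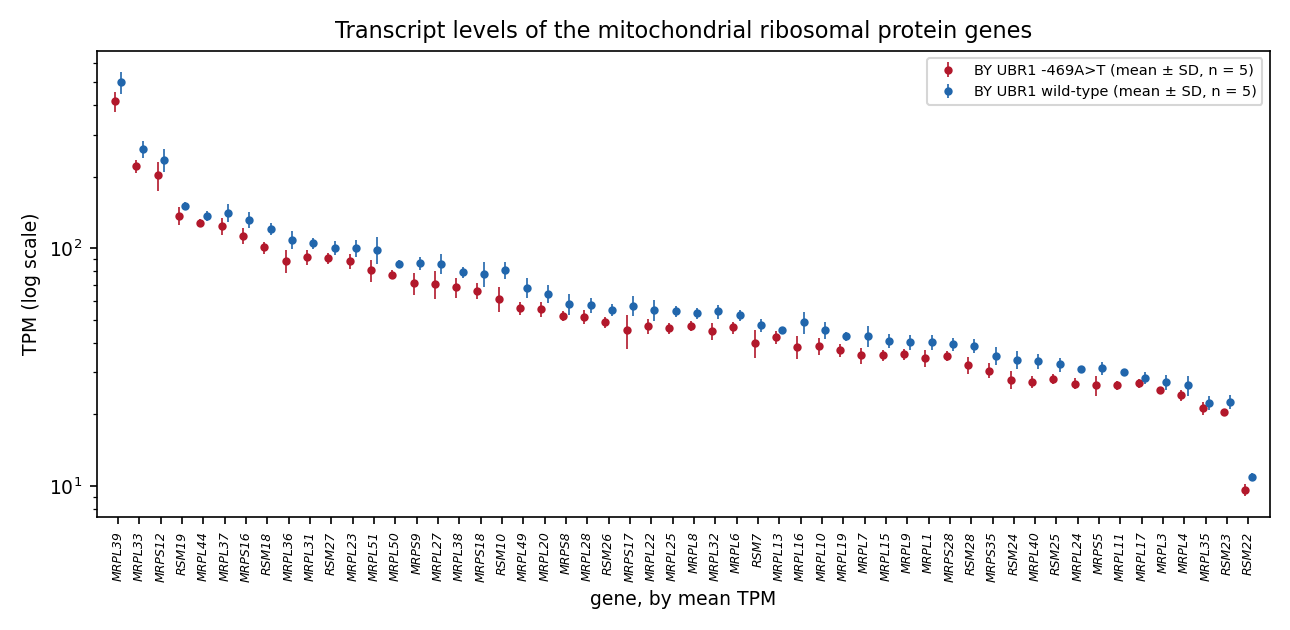
Mean TPM (y axis, log scale) of the 54 mitochondrial ribosomal protein genes in order of abundance (x axis), in BY *UBR1* -469A>T (red, left of each pair) and BY (blue), with bars of 1 SD over 5 cultures. *MRPL39* is the highest, at 414 TPM in BY *UBR1* -469A>T and 499 in BY, and *RSM22* the lowest, at 9.65 TPM in BY *UBR1* -469A>T and 10.9 in BY.

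At the low end stood *RSM22* (YKL155C; chromosome XI, 159456 to 161342, minus strand), the longest member at 1887 bases and the member with no Puf3 recognition element in the window. It had 9.98, 9.34, 8.85, 9.89 and 10.2 TPM in BY *UBR1* -469A>T, against 11.4, 10.8, 11.0, 10.4 and 11.0 in BY. In TPM, whose mean was lower in BY *UBR1* -469A>T for all 54 members, the strains did not overlap. The same held for other members, *RSM18*, *MRPL40* and *MRPL11* among them, and the share over all transcripts was not counted. In normalized CPM the strains overlapped for *RSM22*, with 38.8 to 43.5 in BY *UBR1* -469A>T and 43.1 to 46.8 in BY. The log2 fold change was -0.11 and just missed the threshold (adjusted p = 0.11, edgeR), a value within the range of the called genes, all of which have the element. The other members of low abundance were *RSM23*, *MRPL35*, *MRPL4*, *MRPL3* and *MRPL17*, with mean TPM over all libraries of 21.5, 21.8, 25.2, 26.3 and 27.7.

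Of these, *MRPL35*, *MRPL4*, *MRPL3* and *MRPL17* had the smallest differences between strains. *MRPL17* (YNL252C, mL46; chromosome XIV, 171441 to 172286, minus strand) had 44.7, 45.6, 42.6, 41.9 and 44.7 normalized CPM in BY *UBR1* -469A>T, against 43.2, 44.7, 46.1, 43.7 and 40.9 in BY. The ranges coincide, and the fitted log2 fold change was 0.03 (SE 0.040), or -0.03 with library size alone. *MRPL4* (uL29m) was at -0.00053 and *MRPL3* (mL44) at -0.04. *MRPL35* (mL38) was at -0.04 with 2 surrogate variables and at 0.0099 with 0, and it had 44.2, 48.6, 49.8, 49.5 and 52.2 normalized CPM in BY *UBR1* -469A>T, against 45.2, 46.4, 52.8, 48.3 and 49.9 in BY. *MRPL4* turned to 0.03 with 1 surrogate variable. None of the 4 was called.

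Most members moved together from culture to culture within a strain. The coefficient of variation of normalized CPM ran from 1.93% to 16.1% among the 5 BY *UBR1* -469A>T cultures (median 6.62%) and from 1.30% to 12.5% among the 5 BY cultures (median 6.29%). It was largest for *MRPS17*, *MRPS12* and *MRPL27* (mL41), and *MRPL27* had 49.5, 45.2, 39.6, 39.6 and 34.2 normalized CPM in BY *UBR1* -469A>T, against 53.8, 50.2, 47.2, 45.4 and 41.9 in BY. In each strain replicate 1 was the highest for *MRPL27* and replicate 5 the lowest. Its fitted log2 fold change was -0.08 (adjusted p = 0.25, edgeR), and the difference without covariates was -0.20.

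After subtracting each strain's mean, the Pearson correlation between 2 members over the 10 libraries had a median of 0.58 over 1431 pairs, and 78.5% of pairs were positive. For the other mitochondrial ribosomal proteins the median was 0.43, for cytosolic ribosomal proteins 0.57, for nuclear respiratory subunits 0.91 and for all transcripts -0.0013. These points share libraries and scaling, so the values are a description. Against the mean of the other members, 40 of 54 had a correlation over 0.5, with *MRPL16* the highest at 0.98, and 5 were below 0. Those 5 were *MRPL35* (-0.74), *MRPL13* (-0.73), *RSM23* (-0.63), *MRPL3* (-0.39) and *MRPL44* (-0.28). Of the 5, which are named here for these values, *MRPL35*, *MRPL3* and *MRPL44* were also among the members with small differences between strains.

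Summed over the 54 members, normalized CPM were 3114, 2919, 2757, 2748 and 2686 in BY *UBR1* -469A>T, against 3316, 3201, 3181, 3011 and 2925 in BY. The mean was 2845 ± 173 in BY *UBR1* -469A>T and 3127 ± 157 in BY (SD, n = 5 each), and replicate 1 of BY *UBR1* -469A>T lay above replicates 4 and 5 of BY. In TPM the members made up 0.338% to 0.444% of a library. The libraries also differ along 1 axis, the first principal component of deviations from the strain means over all transcripts, which held 66.4% of that variance. Its positions were -8.74, 1.07, 10.5, 14.0 and 20.7 in BY *UBR1* -469A>T, against -15.4, -18.9, -11.7, -1.79 and 10.1 in BY. Cultures low on the axis had more of the members' RNA in both strains, and the edited cultures lay higher on it on the whole. The part of this axis in the difference between strains was not tested beyond the fits with 0 to 3 surrogate variables given here and in the closing section.

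**Figure D4:**
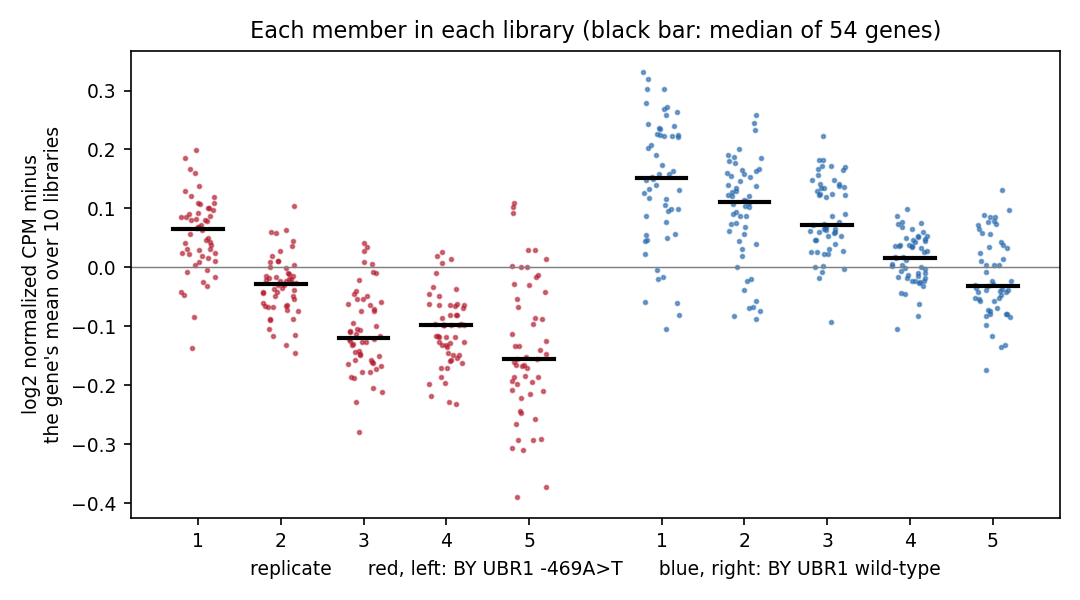
Log2 normalized CPM of each of the 54 mitochondrial ribosomal protein genes minus the gene's mean over 10 libraries (y axis), for the 5 BY *UBR1* -469A>T replicates (red, left) and the 5 BY replicates (blue, right) on the x axis, where each point is a gene and each bar the median of 54. The medians lie between -0.16 and 0.06 in BY *UBR1* -469A>T and between -0.03 and 0.15 in BY, so the strains overlap.

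The rest of the mitochondrial translation system was read in the same fit. Among the 24 other mitochondrial ribosomal proteins, 9 were called lower and 0 higher, with a median log2 fold change of -0.09, and 22 of the 24 were negative. *MRP17*, a small subunit protein, fell most. It had 37.2, 34.3, 35.0, 33.9 and 34.2 normalized CPM in BY *UBR1* -469A>T, against 42.2, 40.2, 40.0, 39.2 and 38.7 in BY, so the strains did not overlap. The log2 fold change was -0.17 (SE 0.033, adjusted p = 0.0090, edgeR), called in 18 of 22 alternatives with adjusted p from 0.00031 to 0.37. In this list 0 genes were called without BY replicate 5, 5 without BY replicate 1, 1 without BY *UBR1* -469A>T replicate 2 and 4 without its replicate 3. With library size alone 18 of the 24 were called lower.

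Factors that work with the ribosome were mixed. Of 10 translation factors, *MEF1*, an elongation factor G of mitochondria, was called lower (-0.13, adjusted p = 0.052, edgeR) and *MTQ1*, the methyltransferase of the mitochondrial release factor, was called higher (0.17, adjusted p = 0.022, edgeR), with a median of -0.04. Of 15 genes for charging mitochondrial tRNAs, 3 were called lower and 0 higher, with a median of -0.06, and the largest fall was that of *SLM5*, the mitochondrial asparaginyl-tRNA synthetase (-0.21, adjusted p = 0.059, edgeR). Of 11 genes for ribosome assembly, processing and attachment to the inner membrane, 3 were called lower and 0 higher around a median of 0.0075, led by *MBA1*, the membrane receptor of the ribosome (-0.15, adjusted p = 0.036, edgeR). Of 17 translational activators of mitochondrial messages, 4 were called lower and 0 higher, with a median of -0.04, led by *CBP6*, which acts on cytochrome b synthesis.

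The calls in these 4 lists moved with single libraries. *MEF1* was called in 13 of 22 alternatives (adjusted p from 0.0026 to 0.76), *MTQ1* in 18 (0.0045 to 0.76), *SLM5* in 14 (0.012 to 0.75, with a log2 fold change from -0.27 to 0.07) and *MBA1* in 17 (0.0067 to 0.92). With each library left out in turn, lower calls numbered 0 to 1 among the translation factors, 0 to 3 for tRNA charging, 0 to 3 for assembly and 0 to 4 for the activators. All 4 lists had 0 lower calls without BY replicate 5, and without BY *UBR1* -469A>T replicate 2 only the activators had any, with 1. The tRNA charging genes also had 0 without BY replicate 2 and without BY *UBR1* -469A>T replicates 3 and 4.

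*CBP6* had 27.5, 26.0, 26.0, 26.4 and 26.6 normalized CPM in BY *UBR1* -469A>T, against 30.6, 29.5, 29.6, 28.7 and 32.1 in BY. The strains did not overlap, and the log2 fold change was -0.19 (SE 0.041, adjusted p = 0.015, edgeR), called in 18 of 22 alternatives with adjusted p from 0.0010 to 0.35. The messages that the ribosome translates could not be read well in polyadenylated RNA. Of 8 mitochondrially encoded proteins, 4 were below the filter on counts (*COX2*, *COX3*, *COB* and *ATP8*, at 0 to 2 estimated counts in their lowest library), and of the 4 tested none was called at an adjusted or an unadjusted threshold.

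The products of the mitochondrial ribosome assemble with nuclear subunits, and cytosolic ribosomes share the ribosomal function, so both were set beside the members. Of 36 nuclear genes of the respiratory chain and ATP synthase, 0 were called in either direction (1 had an unadjusted p under 0.05), with a median log2 fold change of 0.03 and 23 of 36 positive. That count was not stable: without BY *UBR1* -469A>T replicate 4, 1 was called higher, without BY replicate 1, 13 higher and 1 lower, and with 3 surrogate variables 5 higher and 3 lower. With a minimum of 100 counts 3 were called lower, and with library size alone 6. Of 138 cytosolic ribosomal protein genes, 70 were called higher and 0 lower, with a median of 0.12, and all 138 were positive. That list was made from symbols and takes in *RPP1*, an RNase P subunit with the list's largest fold change (0.35), and without it 69 of 137 were called higher. The cytosolic count rests on libraries as well, with 2 called higher without BY replicate 5 and 35 without BY replicate 2. Without BY *UBR1* -469A>T replicates 1, 2, 3 and 4 it was 38, 5, 29 and 32, and with library size alone 23. The differences between the lists were not tested.

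**Figure D5:**
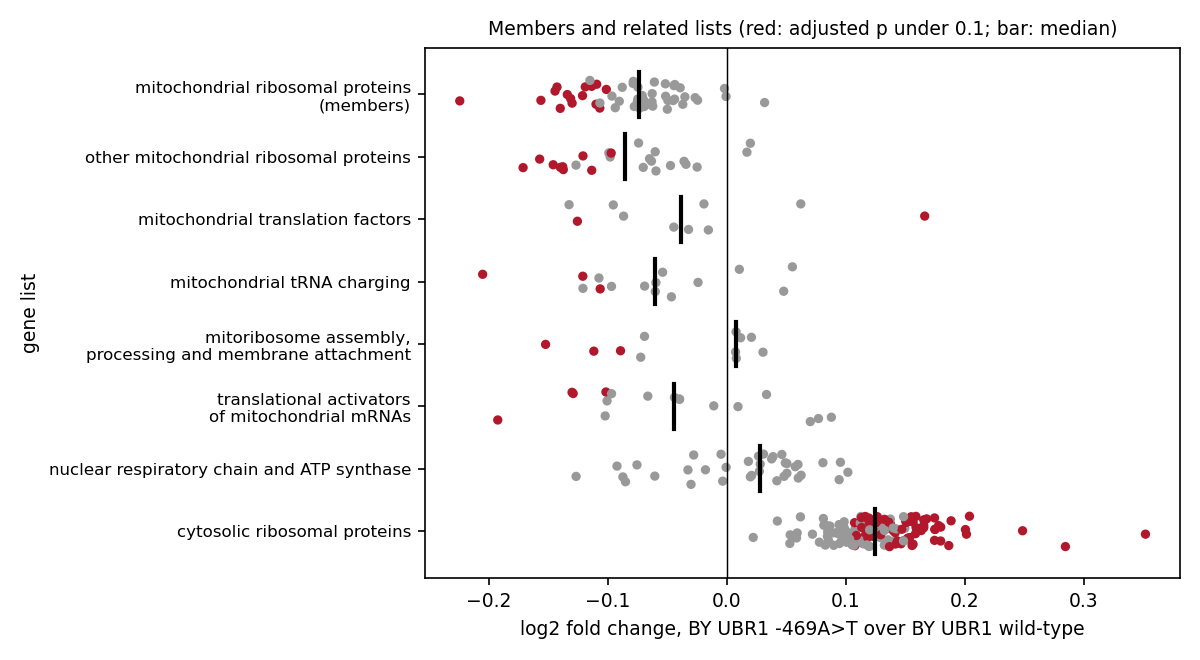
Log2 fold change of BY *UBR1* -469A>T over BY (x axis) for each gene of 8 lists (y axis), with genes called at an adjusted p under 0.1 in red and a bar at each list's median. The members and the other mitochondrial ribosomal proteins have medians of -0.07 and -0.09, the nuclear respiratory subunits 0.03 and the cytosolic ribosomal proteins 0.12.

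Regulators of these gene groups were measured in the same libraries. *PUF3* itself had 37.6, 36.2, 33.7, 36.4 and 31.2 normalized CPM in BY *UBR1* -469A>T, against 43.1, 45.0, 42.7, 39.9 and 32.3 in BY. The strains overlapped only through BY replicate 5, and the log2 fold change of -0.10 was not called (adjusted p = 0.19, edgeR). *HAP4*, the activating subunit of the CCAAT-binding complex that drives respiratory genes, had 193, 218, 247, 245 and 252 normalized CPM in BY *UBR1* -469A>T, against 95.1, 158, 158, 178 and 205 in BY. It rose, with a log2 fold change of 0.43 (SE 0.068, adjusted p = 0.0030, edgeR), although replicate 1 of BY *UBR1* -469A>T lay below BY replicate 5. The *HAP4* call was kept in 19 of 22 alternative fits, with adjusted p from 4.3e-08 to 0.36. It was lost with 0 surrogate variables (adjusted p = 0.18, edgeR). The subunits *HAP2*, *HAP3* and *HAP5* were at -0.03, -0.05 and -0.02, and *HAP1*, the heme-responsive activator, at -0.09, none of them called. The study states that *HAP1* carries a Ty1 insertion in BY, the background of both strains here. The letters CCAAT, on either strand in the window from 250 bases before to 50 bases after the start codon, occurred at 22 of 54 members (40.7%), at 31 of 36 respiratory genes (86.1%) and at 43.3% of all nuclear genes.

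The Puf3 element and the fold change were also set side by side beyond the ribosome. All 15 called members carry the element, but so do all members except *RSM22*, so the members cannot be split by it. Among nuclear genes outside the mitochondrial ribosome, 759 tested genes carry it, of which 88 were called lower (11.6%) and 69 higher (9.09%), with a median log2 fold change of -0.01. Of 4872 without it, 431 were called lower (8.85%) and 639 higher (13.1%), with a median of 0.0053. The difference between these groups was not tested. In the promoter window, AAAATTTT on either strand, a palindrome, occurred at 3 of 54 members (5.56%), *MRPS17*, *MRPL24* and *MRPS16*, and at 9.03% of all nuclear genes. As for counting, *MRPL51* overlaps YPR099C on the opposite strand over 323 bases and *MRPL19* overlaps YNL184C on the same strand over 113 bases. Their estimated counts may be split with these neighbours, and neither was called.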

How the data were processed

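The authors trimmed and filtered reads with fastp, pseudoaligned them with Kallisto to Ensembl release 96 transcripts and deposited, per transcript, its effective length, TPM and estimated count. Versions and the assembly are not given in the sources used here. Estimated counts, deposited without normalization, were rounded before testing. The deposited TPM, scaled within a library, served for levels only. Coordinates and sequences come from RefSeq's R64, and 5929 transcripts matched it.

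Transcripts were kept if no library had fewer than 10 estimated counts or an effective length under 1, and were tested with edgeR 4.0.16 (R 4.3.3, TMM, 2 surrogate variables from sva 3.50.0) and Benjamini-Hochberg adjustment, over all 10 libraries. The study used DESeq2, with batch and optical density beside 2 surrogate variables. At the same adjusted p threshold of 0.1, the study called far fewer transcripts than the 559 lower and 712 higher called here. The reason for this gap was not tested. Batch and density per culture and the transcript integrity filter were not used here. DESeq2 1.42.0, other covariates, filters, scalings and thresholds, and leaving out each library, were alternatives. The procedure was also run on counts simulated from its own fitted model, which cannot test the choice of covariates. Standard errors (SE) were derived from edgeR's F statistic and the fold change. Replicates of a strain differed by 67.5 to 544 times counting error (chi-square over its degrees of freedom). The cultures are stated to be independent, so all 10 counted as samples.

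Members named with values are the 6 largest called falls, the 6 highest and 6 lowest by TPM, and the 3 with the largest coefficient of variation within strains. Each list's largest called rise and fall, the regulators and *UBR1* are named too. Members and lists were chosen with earlier results of these data known.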

Additional observations from a re-analysis of the deposited data

Results flagged for a closer look

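Values of 5 cultures were screened for a culture far from the other 4 of its strain, meaning a gap to the nearest culture of over 0.71 of the whole range. Of 70 such groups of 5, 3 passed, and chance flags about 1 in 20 groups. *MRPL32* had 49.8 normalized CPM in BY replicate 1, where the other 4 BY cultures had 42.5 to 43.7 (gap 0.838 of the range). *MRPL49* had 43.2 normalized CPM in BY *UBR1* -469A>T replicate 1, where the other 4 had 37.3 to 38.6 (0.778 of the range). *HAP3* had 22.5 normalized CPM in BY *UBR1* -469A>T replicate 5, where the other 4 had 24.5 to 25.2 (0.764 of the range). Both outlying members were high in replicate 1, the replicate with the highest summed CPM of the members in each strain.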

How the results depend on the processing

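No member was called higher in any of the 22 alternative fits, and the members' median log2 fold change stayed between -0.14 and -0.04. The count of members called lower, 15 of 54, moved by over 1.5 times in 8 settings other than a left-out library. With 0 surrogate variables edgeR called 0 members, 0 genes of the other lists and 0 transcripts in all (20 members and 1400 transcripts had an unadjusted p under 0.05, and DESeq2 with 2 surrogate variables called 15 members and 1429 transcripts), and with 1 surrogate variable 0, 0 and 43. A minimum of 100 counts gave 24 members, where 13.9% of all transcripts were called lower. No minimum count gave 60 genes of the lists (92 in the fit reported). Library size alone gave 46 members and 2165 transcripts and let 8 members separate by strain. An adjusted p under 0.05 gave 6 members, 44 genes of the lists and 758 transcripts. With each library left out in turn, 1 to 17 members, 4 to 112 genes of the lists and 237 to 1289 transcripts were called, and 1 to 17 members separated by strain. The replicate numbers are not stated to mark a shared batch, and the correlation of same-numbered libraries' deviations ran from -0.012 to 0.72, with 2 of 5 numbers best matched by their own. A replicate block gave 35 members, 154 genes of the lists and 2374 transcripts with 0 surrogate variables, and 0, 1 and 44 with the 2 surrogate variables of the fit reported (7 members with an unadjusted p under 0.05). With the surrogate variables estimated again under the block, a fit chosen after seeing the data, it gave 43, 190 and 3268. Of the 36 respiratory genes, 14 were called lower with the block alone and 19 lower and 1 higher with the surrogate variables estimated again. The fold change turned sign in at least 1 alternative for 21 of the 54 members, 14 of them not named by the rule and none of them called, and 0 to 13 members were positive in a fit. Among those named, *MRPL17* turned to -0.034 with library size alone, *MRPL35* to 0.0099 with 0 surrogate variables, 0.010 with the block alone, 0.054 with the block and 2 surrogate variables and 0.0080 with these estimated again, *MRPL37* to 0.0014 and *MRPL4* to 0.027 with 1 surrogate variable, *MRPL4* to 0.013 and *RSM19* to 0.087 with the block and 2 surrogate variables, and *MRPS12* to 0.054 with 1 surrogate variable and 0.0014 with no minimum count. With 1 library left out, 2 to 8 members were positive (8 without BY replicate 5), and of those named *MRPL17* ran from -0.0056 to 0.047, *MRPL27* from -0.10 to 0.00047, *MRPL35* from -0.094 to 0.010, *MRPL37* from -0.072 to 0.021, *MRPL4* from -0.027 to 0.023 and *MRPS12* from -0.0048 to 0.031. The cause of these changes was not tested. The lowest estimated count of a member in a library was 1701, and the effect of depth was not tested.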

Other observations

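The promoter letters AAAATTTT were also counted over all nuclear protein-coding genes, the mitochondrial ribosomal proteins included. Of 530 tested genes with them, 173 were called higher and 19 lower in BY *UBR1* -469A>T, with a median log2 fold change of 0.09, and of 5179 without them 535 were called higher and 524 lower, with a median of -0.0047 (edgeR, adjusted p under 0.1). The difference between these groups was not tested. The 3 members with these letters, *MRPS17*, *MRPL24* and *MRPS16*, had log2 fold changes of -0.13, -0.09 and -0.07.

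The Puf3 recognition element was also present at 6 of 138 cytosolic ribosomal protein genes. These 6 had a median log2 fold change of 0.16, with 4 called higher and 0 lower. The 132 cytosolic genes without the element had a median of 0.12, with 66 called higher and 0 lower. For the 53 mitochondrial ribosomal protein genes that carry the element the median was -0.07. The differences between these groups were not tested.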
